A study of Rattus norvegicus with 6 samples.

Results

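Fibroblasts of the meninges and vessels were followed as nuclei chosen by their transcripts from 6 single-nucleus RNA libraries of rat brain. A nucleus was counted as a fibroblast nucleus when it carried at least 3 unique molecular identifiers (UMIs, each standing for 1 captured RNA molecule) of Col1a1, Col1a2, Col3a1, Dcn, Lum and Aldh1a2 together, when these made up at least 0.3% of its UMIs, and when it held at most 3 UMIs of the neuronal genes Snap25, Syt1 and Rbfox3 and at most 1 of Pecam1. The levels of these genes therefore chose the nuclei and are given below only as a description. The rule also names Flt1 and Cldn5, which were not analysed here, so its endothelial clause rested on Pecam1. It found 206 of the 73649 nuclei that passed the filters on UMIs, genes and mitochondrial transcripts, 0.280% of them.

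The libraries came from male wild-type Wistar rats aged 12 weeks, killed 48 h after the operation, which was either permanent occlusion of the right middle cerebral artery by a filament (MCAO) or the same surgery without the filament (Sham). Left and right hemispheres of coronal slices around the lesion were processed apart, and each library pooled the tissue of its rats: Sham L and Sham R shared 4 rats, mMCAO contra and mMCAO ipsi (moderate infarcts) shared 3 rats, and sMCAO contra and sMCAO ipsi (severe infarcts) shared 4 rats. Contra is the left hemisphere opposite the lesion and ipsi the right, infarcted one. The groups Sham, MCAO contra and MCAO ipsi thus held 2 libraries each, those of Sham being the 2 hemispheres of the same rats, and those of MCAO differing in infarct size. An exact permutation test of 2 against 2 libraries cannot give a two-sided p below 0.333, so shares of nuclei were not tested between groups. Genes were tested with edgeR, as given below. Between 118 and 281 barcodes were shared by any pair of libraries, and 0 of them belonged to a fibroblast nucleus in both.

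Brain fibroblasts lie in the pia, arachnoid and dura and around larger vessels. They deposit fibrillar collagen and basement membrane, and those of the leptomeninges are known for the retinoic acid enzyme Aldh1a2 and for carriers that move organic anions and neurotransmitters. After injury, fibroblasts are known to contribute to the scar around damaged tissue.

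The fibroblast nuclei were rare in Sham and most frequent in the severe infarct. The Sham libraries held 4 of 13125 (left) and 2 of 13626 nuclei (right), the contralateral libraries 28 of 14491 (mMCAO) and 15 of 10794 (sMCAO), and the infarcted ones 43 of 12948 (mMCAO) and 114 of 8665 (sMCAO). Lists of 6 values below keep this order of libraries, and lists of 4 values give the MCAO libraries only, contralateral before infarcted and moderate before severe. As shares the counts were 0.0305%, 0.0147%, 0.193%, 0.139%, 0.332% and 1.32% of nuclei, with exact 95% binomial intervals of 0.0083 to 0.0780, 0.0018 to 0.0530, 0.128 to 0.279, 0.0778 to 0.229, 0.240 to 0.447 and 1.09 to 1.58%. The groups did not overlap, with both Sham libraries lowest, both contralateral libraries between and both infarcted libraries highest. Intervals here and below cover counting error only. The mean share was 0.0226% ± 0.0112 (SD, n = 2) in Sham, 0.166% ± 0.0384 in MCAO contra and 0.824% ± 0.695 in MCAO ipsi.

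**Figure D1:**
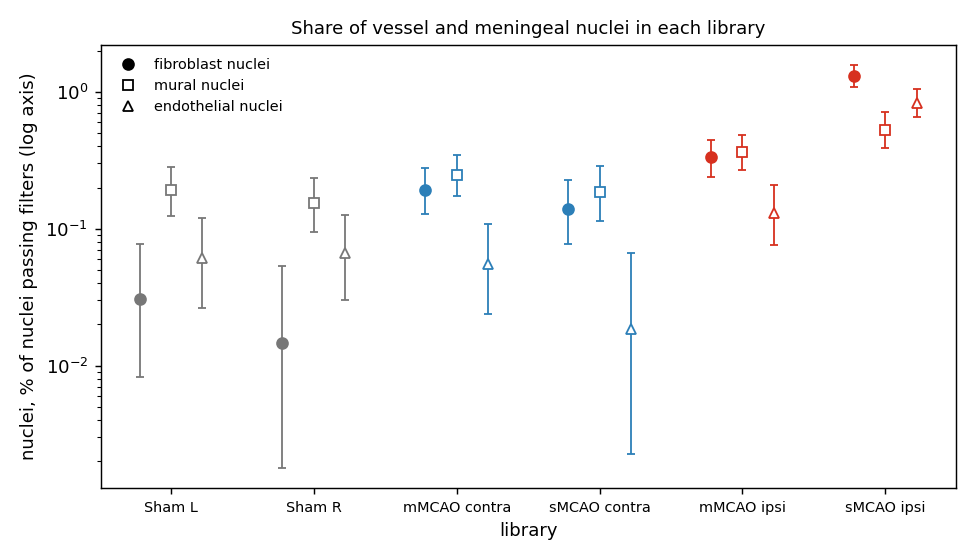
Share of nuclei passing the filters that were fibroblast (filled circles), mural (open squares) or endothelial nuclei (open triangles) in each library, in percent on a log axis, with exact 95% binomial intervals; grey is Sham, blue MCAO contra and red MCAO ipsi. Fibroblast shares run from 0.0147% in Sham R to 1.32% in sMCAO ipsi, and mural shares from 0.154% in Sham R to 0.531% in sMCAO ipsi.

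Within each pool of rats the infarcted hemisphere held the larger share. The ratio of ipsi to contra was 1.72 (95% interval 1.04 to 2.87) in mMCAO and 9.47 (5.51 to 17.5) in sMCAO, and sMCAO ipsi held 3.96 times the share of mMCAO ipsi (2.77 to 5.77). With every nucleus thinned to 500 UMIs before the rule was applied, these ratios were 1.62 (0.887 to 3.03, which holds 1), 7.47 (4.03 to 15.1) and 3.71 (2.38 to 5.92). With no minimum share of UMIs, the severe infarct held 6.43 times the share of the moderate one (4.70 to 8.93). The ratio of ipsi to contra was then 1.55 (0.993 to 2.46, which holds 1) in mMCAO and 11.2 (7.30 to 17.8) in sMCAO. The contralateral hemispheres held 6.34 times (2.22 to 24.9, mMCAO) and 4.56 times (1.45 to 18.9, sMCAO) the share of Sham L, the same side of the sham-operated rats. Neuron nuclei, those with 6 or more UMIs of the neuronal genes, moved with this result, from 78.2% and 79.4% of nuclei in Sham L and Sham R to 67.8% in mMCAO ipsi and 36.6% in sMCAO ipsi. Over nuclei with at most 3 neuronal UMIs the fibroblast share was 0.174%, 0.113%, 0.792%, 0.603%, 1.10% and 2.11%, so the libraries kept their ranking on that denominator too. How much meninges each slice carried was not tested.

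Mural nuclei, the pericytes and smooth muscle cells of the vessel wall, gave another measure of how much vessel was sampled. They numbered 25, 21, 36, 20, 47 and 46, and there were 0.16, 0.0952, 0.778, 0.75, 0.915 and 2.48 fibroblast nuclei for each mural nucleus. These nuclei carried endothelial markers too, at 6902 CPM (UMIs of a gene or list for each 1000000 UMIs summed over the nuclei). Mural shares in mMCAO contra and sMCAO contra were 1.30 times (0.762 to 2.27) and 0.973 times (0.512 to 1.82) that of Sham L. Both intervals hold 1. The difference between mural and fibroblast ratios was not tested. Without sub-cluster 3, described below, the fibroblast interval of mMCAO contra to Sham L held 1 too (0.815 to 286). Endothelial nuclei, which line the vessels, numbered 8, 9, 8, 2, 17 and 72. There were 0.5, 0.222, 3.5, 7.5, 2.53 and 1.58 fibroblast nuclei for each endothelial nucleus, lower in ipsi than in contra in both pools. The endothelial ratio of ipsi to contra was 2.38 (0.973 to 6.37, which holds 1) in mMCAO and 44.8 (12.0 to 377) in sMCAO. That of sMCAO ipsi to mMCAO ipsi was 6.33 (3.69 to 11.5), so the severe infarct held the larger share of endothelial nuclei too. Mural shares were also larger in the infarct than in Sham R, with ratios of 2.36 (1.38 to 4.15) for mMCAO ipsi and 3.44 (2.01 to 6.08) for sMCAO ipsi. The mural ratio of ipsi to contra was 1.46 (0.927 to 2.32, which holds 1) in mMCAO and 2.87 (1.66 to 5.11) in sMCAO. Between the infarcted libraries, severe to moderate, it was 1.46 (0.953 to 2.24), an interval that holds 1.

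The rule left nuclei close to its limits. Of the 206 members, 30 had exactly 3 UMIs of the 6 genes, and 40 nuclei just outside had 2 UMIs and met every other clause. Fibroblast markers that the rule did not use (32 genes measured, led by Slc6a20) took 19691 CPM in the former and 16702 in the latter. A further 128 nuclei had 3 or more UMIs but fell under 0.3%, with a median of 2442 UMIs per nucleus against 1096.5 in the members. They carried the same markers at 11134 CPM, and 101 of them came from sMCAO ipsi, so the share threshold left out deep nuclei mainly in that library. Without it the counts were 5, 4, 36, 24, 50 and 215.

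The chosen nuclei carried fibroblast genes outside the rule, described here without a test because the same nuclei were selected. The 32 markers summed to 18395 CPM in the fibroblast nuclei and to 1061 in all other nuclei, and in the 6 libraries they stood at 10605, 19102, 16460, 19631, 18617 and 18582. All 32 had at least 1 UMI. Slc6a20, a carrier of proline and related imino acids, had 1169 UMIs in the members, which was 39.1% of its UMIs in the whole series. Ranbp3l, which takes part in nuclear export, had 941 UMIs, 20.3% of the series. Aldh1a2, which makes retinoic acid and was a rule gene, had 696 UMIs, 56.9% of the series.

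Detection in single nuclei gave the same picture at matched depth. Slc6a20 was seen in 59.2% of fibroblast nuclei and Ranbp3l in 62.1%, against 0.889% and 1.33% of 1800 sampled neuron nuclei, which should lack them. The median depths were 1096.5 and 3818.5 UMIs. After thinning every nucleus to 500 UMIs the shares were 49.5% and 53.9% in fibroblast nuclei and 0.0556% and 0.333% in neuron nuclei.

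**Figure D2:**
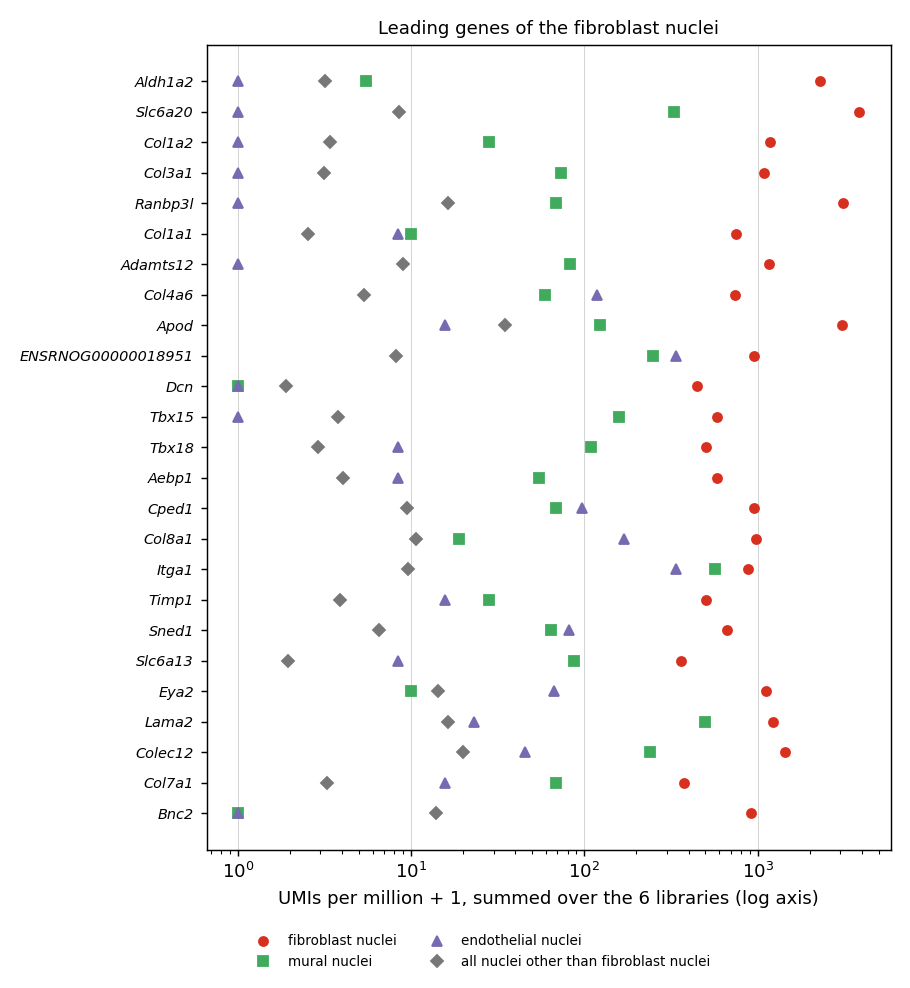
CPM (plus 1, log axis) of the 25 genes with the largest ratio of fibroblast to other nuclei, summed over the 6 libraries, in fibroblast nuclei (red circles), mural nuclei (green squares), endothelial nuclei (purple triangles) and all nuclei other than fibroblast nuclei (grey diamonds). Every red point lies to the right of the other 3; Lama2 and Itga1 are the genes whose mural level, 496 and 568 CPM, comes nearest.

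The 25 genes with the largest ratio over other nuclei (with 5 CPM added to both) included 5 of the 6 rule genes, and their ratios ran from 51.4 to 321. The sums pool all libraries and sMCAO ipsi gave 72.0% of the UMIs of the fibroblast nuclei, among them 831 of 925 UMIs of Apod and 131 of 151 of Timp1. Besides those named, they held matrix genes (Col4a6, Col7a1, Col8a1, Lama2, Sned1), the protease Adamts12 and the inhibitor Timp1, the transcription factors Tbx15, Tbx18, Eya2 and Bnc2, the lipid carrier Apod, the GABA carrier Slc6a13 and the scavenger receptor Colec12. Lama2, a laminin chain of basement membrane, stood at 1228 CPM in the members, 496 in mural and 15.3 in all other nuclei. Tbx18, a factor of mesenchymal and mural lineages, stood at 503, 108 and 1.92.

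Lists of other cell types were present at unequal levels. The lymphocyte and neutrophil list had 4 UMIs in all members, the ependymal list 4 and the choroid plexus epithelium list 1. The pericyte list took 761 CPM in the members and 9585 in mural nuclei, and its most abundant gene was Ebf1. The endothelial list took 483 CPM over all members and 1253 in mMCAO ipsi, and its most abundant gene was Cdh5 with 75 of 146 UMIs. The astrocyte list, led by the glutamate carrier Slc1a3 with 313 of 691 UMIs, took 2287 CPM in the members and 1227 in other nuclei, with Aldh1l1 at 0. The OPC list (oligodendrocyte precursors) took 1075 and 235 CPM and was led by Pdgfra, which fibroblasts carry too, with 223 of 325 UMIs, while Olig1, Olig2 and Sox10 were at 0. Both lists had UMIs in every library. The list of other neuronal genes, led by Kcnip4, took 13354, 14327, 5978, 4693, 3213 and 510 CPM in the 6 libraries, against 38565 in nuclei outside. Neuronal transcripts in the fibroblast nuclei were thus highest in the Sham libraries, where fibroblast nuclei were fewest, and lowest in sMCAO ipsi. The count of genes called below, 0, was also computed without the nuclei that carried most of them and over the 597 genes higher in the fibroblast than in the neuron nuclei, giving 3 and 0 calls.

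Those nuclei formed a group of their own. Clustering of the 206 nuclei gave 4 sub-clusters, which are named here by number because the same genes defined them. Sub-cluster 1 (96 nuclei) was led by Nnat, Trpm3, Slc6a20, Slc13a4, Ranbp3l and Slc6a13. Sub-cluster 2 (50 nuclei) was led by Postn, Tnc, Itga2 and Hmga2. Sub-cluster 3 (48 nuclei) was led by the neuronal genes Rbfox1, Nrg3, Cntnap2 and Kcnip4, and sub-cluster 4 (12 nuclei) by Slit2, Igfbp5, Adamtsl3, Hmcn1 and Grm8.

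**Figure D3:**
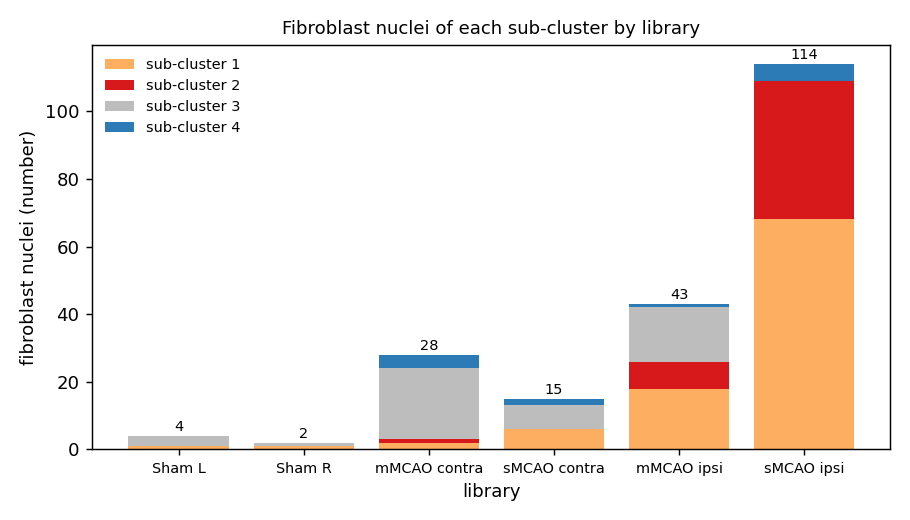
Number of fibroblast nuclei in each library, stacked by sub-cluster, with the total above each bar. Sub-cluster 2 has 41 of its 50 nuclei in sMCAO ipsi, and sub-cluster 3 has 0 there and 28 of 48 in the contralateral libraries.

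The sub-clusters were spread unevenly over the libraries. Libraries were not integrated before clustering, so differences between libraries and in depth can enter the sub-clusters, and their part was not tested. Sub-cluster 1 had 1, 1, 2, 6, 18 and 68 nuclei in the 6 libraries, sub-cluster 2 had 0, 0, 1, 0, 8 and 41, sub-cluster 3 had 3, 1, 21, 7, 16 and 0, and sub-cluster 4 had 0, 0, 4, 2, 1 and 5. Sub-cluster 3 was the shallowest, with a median of 741.5 UMIs against 1110.5, 1914.5 and 1690.5 in sub-clusters 1, 2 and 4. The other fibroblast markers stood at 27616, 10072, 17785 and 15007 CPM in sub-clusters 1 to 4, lowest in sub-cluster 2, and Ranbp3l was seen in 72.9% of the nuclei of sub-cluster 3. Without it the fibroblast nuclei numbered 1, 1, 7, 8, 27 and 114, the ratio of ipsi to contra was 4.32 (1.83 to 11.7) in mMCAO and 17.8 (8.71 to 42.1) in sMCAO, and that of sMCAO ipsi to mMCAO ipsi 6.31 (4.12 to 9.99). Against Sham L, which then held 1 fibroblast nucleus, mMCAO contra stood at 6.34 (0.815 to 286, which holds 1) and sMCAO contra at 9.73 (1.30 to 432).

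Sub-cluster 1 stood highest on the list of meningeal carriers and transporters, whose most abundant gene, Slc6a20, was among those that led it. Slc13a4, Slc16a11 and Slc6a13 of the list were also among its leading genes, so a high sum in sub-cluster 1 was partly built in. The list took 18578 CPM there, 7944 of them from Slc6a20, and 3288 in sub-cluster 2, 12674 in sub-cluster 3 and 13001 in sub-cluster 4. The order without these leading genes was not tested. At 500 UMIs per nucleus, Slc6a20 was seen in 72.9%, 16%, 50% and 0% of the nuclei of sub-clusters 1 to 4, and Ranbp3l in 80.2%, 4%, 66.7% and 0%. Aldh1a2, a rule gene, was seen in 77.1%, 30%, 66.7% and 0%, and Bmp6, a ligand of the BMP family, in 83.3%, 24%, 58.3% and 58.3%.

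Sub-cluster 2 carried matrix, contraction and cell cycle genes. Postn (periostin) and Tnc (tenascin C), both matricellular proteins of wound tissue, had 138 and 205 UMIs there and 0 and 8 in the other sub-clusters together. The list of fibroblast activation and contraction genes took 8727 CPM in sub-cluster 2 and 2823, 2862 and 3097 in sub-clusters 1, 3 and 4. The list of cell cycle genes took 5165 against 819, 997 and 785. Postn, Tnc, Adam12 and Runx1 of the first list were among the leading genes, at 1146, 1702, 996 and 357 CPM. So was Diaph3 of the second list, at 789 CPM. The sums are therefore only a description of sub-cluster 2. Either Mki67 or Top2a, markers of dividing cells, was seen in 25 of its 50 nuclei and in 5 of the other 156. Nuclei with either gene numbered 0, 0, 0, 1, 4 and 25 in the 6 libraries, of 4, 2, 28, 15, 43 and 114. The cell cycle list stood at 0, 0, 369, 3207, 1527 and 3034 CPM. By this sum sMCAO contra was as high as sMCAO ipsi, from 41 UMIs in 15 nuclei. Of these nuclei 2 held 5 or more UMIs of the list, against 26 of 114 in sMCAO ipsi. Sub-cluster 2 was also the deepest, which raises such shares; at 500 UMIs, 23 of its nuclei had 2 or more UMIs of the cell cycle list, against 4, 1 and 1 in sub-clusters 1, 3 and 4.

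Sub-cluster 4 was small and set apart by Bnc2, a zinc finger factor seen in 100% of its 12 nuclei at 500 UMIs, and by guidance and ion carrier genes. Slit2, a repulsive guidance cue, had 70 of its 78 UMIs there and Igfbp5, which binds insulin-like growth factors, 66 of 76. The bicarbonate carriers Slc4a4 and Slc4a10 had 117 of 195 and 38 of 49. The astrocyte list stood at 6544 CPM there against 2590, 1046 and 2683 in sub-clusters 1 to 3, with Slc4a4 giving 117 of its 150 UMIs, and the dural fibroblast list, led by Foxp2 with 56 of 90 UMIs, at 3926 against 819, 349 and 715. The list of fibrillar collagens is not compared between sub-clusters, because Col1a1, Col1a2 and Col3a1 chose the nuclei.

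**Figure D4:**
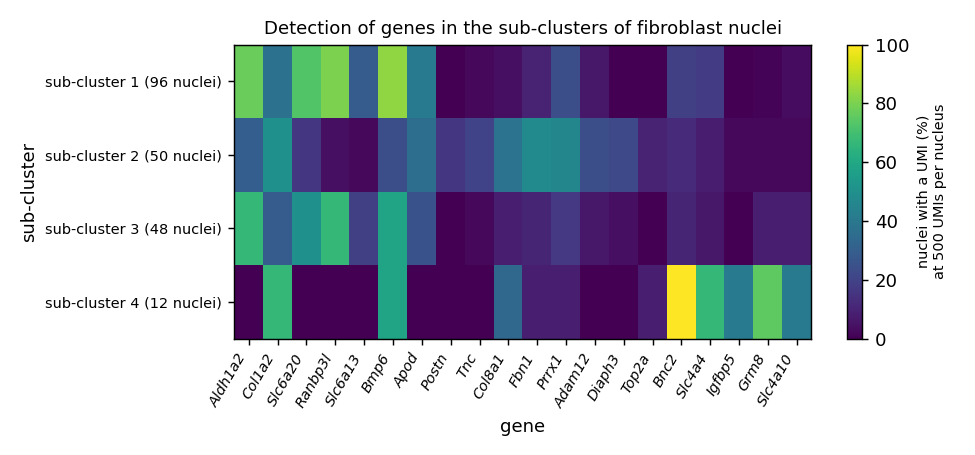
Share of nuclei with at least 1 UMI of each gene (colour, 0 to 100%) after thinning each nucleus to 500 UMIs, for the 4 sub-clusters (rows) and 20 genes (columns) described in the text. Slc6a20 and Ranbp3l are high in sub-clusters 1 and 3, Postn and Tnc in sub-cluster 2 alone at 16% and 20% (at most 2.08% elsewhere), and Bnc2 reaches 100% in sub-cluster 4.

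The comparison of MCAO ipsi with MCAO contra asked whether the fibroblast nuclei themselves differed between the infarcted and opposite hemispheres. UMIs were summed over the fibroblast nuclei of each library, giving 24423, 12786, 43884 and 217516 in the 4 MCAO libraries, and 735 genes were tested. The Sham libraries, with 4 and 2 nuclei and 2546 and 1047 UMIs, were left out because they held under 10 nuclei each, and no gene of the fibroblast sums was compared with Sham. By edgeR's quasi-likelihood test 0 genes passed an adjusted p of 0.05 with a log2 fold change of 0.6 (0% of those tested), and the smallest adjusted p was 0.299. At an unadjusted p of 0.05 there were 33 genes higher in MCAO ipsi (4.49%) and 25 lower (3.40%), and DESeq2 called 1 gene, Grm8, lower. The filter on low counts asked for about 293 CPM in 2 libraries. Of the 735 genes, 46 passed it only through both infarcted libraries and 58 only through both contralateral ones, so these had to differ. Of the genes named below, Postn, Tnc, Cblb, Myof, Frmd4a, Vim, Adam12, Col4a1 and Il1r1 were among the former and Grm8, Frmpd4, Slc4a10 and Tmeff2 among the latter, and their values are given as a description. On simulated libraries of this depth the edgeR test recovered 10.3% of genes changed by 1 on the log2 scale, 77.3% of those changed by 2 and 98.5% of those changed by 3. It also called 2 unchanged genes. The simulated counts took their spread from the fitted trend alone, with no spread particular to a gene. In the real counts Grm8, at a log2 fold change of -3.55, was not called. The recovered shares therefore do not say how many changes of such sizes the real fit could find, and 0 calls do not show that large changes were absent.

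Postn and Tnc had no UMIs in either contralateral library, so their change has no exact size and is not ranked against that of other genes. Postn had 0, 0, 24 and 114 UMIs in the 4 MCAO libraries, and Tnc had 0, 0, 17 and 196. Both contralateral libraries were at 0 and both infarcted libraries well above. Against a floor of 3 UMIs over the 2 contralateral libraries, Postn was at least 6.55-fold higher and Tnc at least 10.1-fold higher in MCAO ipsi, with adjusted p of 0.299 and 0.430 by edgeR. The exact 95% counting intervals of these ratios began lower, at 5.25 and 8.15. Postn stood at 547 and 524 CPM in mMCAO ipsi and sMCAO ipsi, a ratio of 0.96 (0.61 to 1.56) of severe to moderate, while Tnc stood at 387 and 901, a ratio of 2.33 (1.42 to 4.07). In single nuclei, Postn was seen in 19 and Tnc in 18 of the 206, and both in 9. The values of mMCAO ipsi came from 3 nuclei with Postn and 3 with Tnc, and those of sMCAO ipsi from 16 and 15, so the ratios of severe to moderate rest on a few nuclei.

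The starts of Postn and Tnc are shown because these genes were the pair found together in sub-cluster 2 and at 0 in the contralateral libraries. The 250 bases before each RefSeq start site (assembly GRCr8, chr2:140677811-140678060 on the + strand for Postn and chr5:82476132-82476381 on the - strand for Tnc, each read 5′ to 3′ along the gene) were searched on both strands for the TATA box TATAAA, the AP-1 motif TGANTCA and the TEAD motif GGAATG, and matches are in capitals.
Postn: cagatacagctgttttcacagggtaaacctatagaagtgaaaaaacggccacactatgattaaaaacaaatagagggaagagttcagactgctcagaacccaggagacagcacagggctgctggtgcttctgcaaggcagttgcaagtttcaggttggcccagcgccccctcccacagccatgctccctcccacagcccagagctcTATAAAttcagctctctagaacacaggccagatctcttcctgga
Tnc: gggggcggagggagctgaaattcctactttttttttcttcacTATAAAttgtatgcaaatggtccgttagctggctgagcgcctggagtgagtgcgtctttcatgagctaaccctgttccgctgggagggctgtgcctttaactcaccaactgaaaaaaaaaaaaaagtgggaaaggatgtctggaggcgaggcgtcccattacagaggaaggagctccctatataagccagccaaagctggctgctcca
TATAAA was found 44 bases before the Postn start and 208 bases before the Tnc start, both on the gene's strand, and neither window held the AP-1 or TEAD letters. Over all windows, TATAAA was most frequent 30 bases before the start, so the Tnc match lay far from the usual place. A similar run, tatataa, lies close to the Tnc start. The search for the exact letters TATAAA did not cover it, so it is in lower case. Among 33469 windows of the same length, 12.9% held TATAAA, 6.34% the AP-1 letters and 12.1% the TEAD letters on either strand. A match is a run of letters and not a shown site of binding.

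The other genes named on the higher side were Cblb, Myof and Frmd4a. Cblb, a ubiquitin ligase, had 1, 1, 16 and 95 UMIs in the 4 MCAO libraries, a ratio of MCAO ipsi to MCAO contra of 7.90 (95% counting interval 2.14 to 66.0). Myof, a membrane repair protein of the ferlin family, had 2, 0, 15 and 94, a ratio of 7.76 (2.10 to 64.9). Frmd4a, a scaffold of cell polarity, had 2, 2, 35 and 140, a ratio of 6.23 (2.39 to 23.1). In all 3 the infarcted libraries lay above the contralateral ones, which was a condition for naming them and held for 16.5% of all genes tested, and none passed the test (adjusted p 0.399, 0.430 and 0.299 by edgeR).

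On the lower side, Grm8, a metabotropic glutamate receptor, stood at 1106, 782, 22.8 and 91.9 CPM in the 4 MCAO libraries, a log2 fold change of -3.55 ± 0.54 (SE, adjusted p = 0.299 by edgeR). Of its 59 UMIs, 49 lay in sub-cluster 4, which made up 6 of 43 contralateral and 6 of 157 infarcted nuclei. Slc4a10, which moves bicarbonate, had 14, 9, 4 and 21 UMIs and a log2 fold change of -2.58 ± 0.44 (adjusted p = 0.299 by edgeR), with 38 of its 49 UMIs in sub-cluster 4. The remaining named genes, Frmpd4, Tmeff2 and Stk39, had log2 fold changes of -2.76, -1.49 and -1.47 with an adjusted p of 0.430 each by edgeR. All 5 were lower in both infarcted libraries than in both contralateral ones, which was a condition for naming them and held for 24.8% of all genes tested. Grm8, Slc4a10, Frmpd4 and Tmeff2 stood at 773, 703, 2177 and 1057 CPM in neuron nuclei against 195, 162, 218 and 308 in the fibroblast nuclei, and Frmd4a, on the higher side, at 2563 against 606. The neuronal list was lower in the infarcted libraries too. Sub-cluster 4 held 58 of the 93 UMIs of Tmeff2 and 33 of the 66 of Frmpd4.

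**Figure D5:**
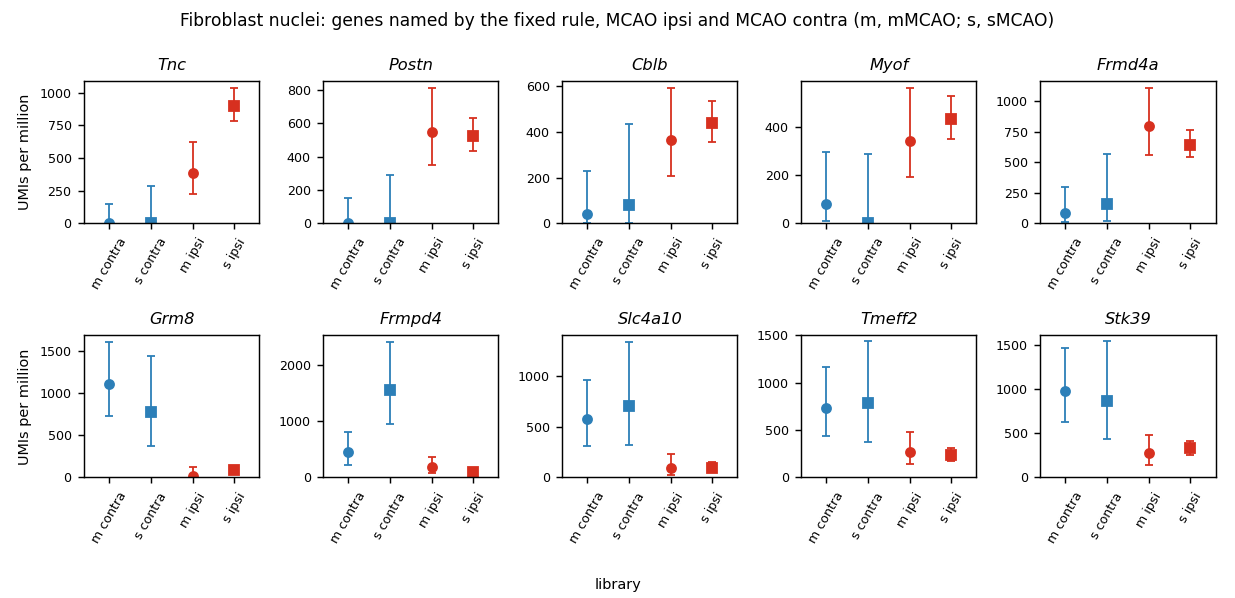
CPM in the summed fibroblast nuclei of the 4 MCAO libraries (circles, mMCAO; squares, sMCAO; blue, contra; red, ipsi) for the 10 genes named by the fixed rule, with exact 95% Poisson intervals and axes that start at 0. In the upper row both red points lie above both blue points, and in the lower row below them; none of these differences passed the adjusted test.

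By role, 6 of the 25 genes of the activation and contraction list were deep enough to test. Postn, Tnc, Vim and Adam12 were among them only through the infarcted libraries, where they were high, so no count over the list is read here. Vim, an intermediate filament of mesenchymal cells, had 246, 156, 456 and 611 CPM, and Adam12, a membrane metalloprotease, had 123, 156, 433 and 561. In both the infarcted libraries lay above the contralateral ones. Cald1, an actin-binding protein, had 1065, 391, 889 and 1057 CPM, and Itgb1, an integrin chain, had 328, 235, 228 and 441, and for both the groups overlapped. Over all 735 genes the log2 fold change was above 0 for 52.2%, with a median of 0.03. The list was highest in sub-cluster 2, as given above, and that sub-cluster held 1, 0, 8 and 41 nuclei in the 4 MCAO libraries, so different sub-clusters made up the groups. Of the elastic fibre and matricellular list 6 genes were tested, Postn and Tnc again among them. Fbn1, the fibrillin of microfibrils, stood at 123, 626, 911 and 1071 CPM with no overlap, and Fn1, fibronectin, at 205, 939, 570 and 736 with overlap.

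Among the fibrillar collagens, Col1a1, Col1a2 and Col3a1 chose the nuclei, so the sum of the list is not compared. Col5a2, the only other one deep enough to test, stood at 409, 313, 592 and 749 CPM, a log2 fold change of 0.99 that did not pass the test. Among other collagens, Col8a1 stood at 40.9, 547, 775 and 1149, with both infarcted libraries above both contralateral ones. Of the basement membrane list 7 genes were tested. Col4a1, a chain of type IV collagen, had 2, 1, 19 and 88 UMIs and stood at 81.9, 78.2, 433 and 405 CPM, while Lama2 stood at 1106, 1486, 980 and 1264.

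Carriers, transcription factors and signals were mixed. Of the carrier list 9 genes were tested, 3 positive and 6 negative, with a median of -0.43. Slc7a11, the cystine and glutamate exchanger, stood at 4135, 2894, 2803 and 2142 CPM, and Slc6a20 at 1843, 4771, 3600 and 4133. Of the mesenchymal transcription factors 14 were tested with a median of 0.11. Prrx1, a homeobox factor of mesenchyme, stood at 287, 391, 547 and 1034, and Eya1 at 573, 704, 296 and 262. The TGF-beta list had a median of -0.25 over 5 genes and the growth factor list 0.02 over 8. Genes that passed the filter on low counts through 1 side only had to differ, whichever list held them. The medians of the lists in this paragraph are therefore given as a description only. Il1r1, the interleukin 1 receptor, was the only gene of the chemokine and cytokine list deep enough to test, at 246, 156, 798 and 460 CPM. It passed the filter only through the infarcted libraries. The 5 tested genes of the neuronal list had log2 fold changes below 0, with a median of -1.66.

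Severe and moderate infarcts had 1 library each, so sMCAO ipsi and mMCAO ipsi were compared as libraries with no replicate check. Of 2243 genes with 30 or more UMIs in the pair, the Poisson interval of the ratio lay above 1 for 143 (6.38%) and below 1 for 154 (6.87%). Without sub-cluster 3 these counts were 93 and 108 of 2115 genes. Ccbe1, which matures the lymphatic growth factor Vegfc, had 207 UMIs in sMCAO ipsi, spread over 41 nuclei, and 1 in mMCAO ipsi. Apod had 831 and 51 UMIs, 3820 and 1162 CPM, a ratio of 3.29 (2.48 to 4.45), and of 5.85 (3.96 to 9.04) without nuclei that held 2 or more UMIs of other endothelial genes. Mmd had 92 and 2 UMIs and Fam71e2 48 and 0. The transcript AY172581.24 stood at 8174 and 1869 CPM, with 268 of its 1778 UMIs in sMCAO ipsi in 1 nucleus. The mitochondrial filter counted only genes with names that start with Mt-, so it did not cover this transcript. Whether AY172581.24 is itself mitochondrial was not tested, and its ratio is not read as a change in fibroblasts.

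On the other side, Slco1a4, an organic anion carrier of brain endothelium, had 8 UMIs in sMCAO ipsi and 26 in mMCAO ipsi, 20 of these in 1 nucleus. Leaving out nuclei with 2 or more UMIs of other endothelial genes gave 6 and 4, a ratio of 0.378 with an interval of 0.0896 to 1.82 that holds 1. Sgcz, Dpp10 and Adgrb3, all expressed in neurons, stood at 0.0865 (0.0349 to 0.197), 0.109 (0.0524 to 0.216) and 0.116 (0.0573 to 0.228) of their mMCAO ipsi level, and ENSRNOG00000066703 at 0.0489, with 24 of its 33 UMIs in 1 nucleus. Sub-cluster 3, which carried neuronal transcripts, had 16 nuclei in mMCAO ipsi and 0 in sMCAO ipsi, and without it the ratios of Sgcz, Dpp10 and Adgrb3 were 0.124, 0.148 and 0.258.

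Set beside mural nuclei, the change from MCAO contra to MCAO ipsi in the fibroblast nuclei was not distinguishable gene by gene. In a fit of both classes with library as a block, 0 of 1795 genes (0%) differed in their change at an adjusted p of 0.05 and a log2 difference of 0.6 by edgeR, the smallest adjusted p being 0.590, and 53 and 44 genes had an unadjusted p under 0.05 in the directions of fibroblast and mural nuclei. Without mMCAO ipsi the count was 48, from 1 infarcted library.

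Sums over all nuclei of a library had the depth that the fibroblast nuclei lacked, and gave a view that included the nuclei the rule missed. Of 17186 genes tested over the 6 libraries by edgeR, 10.2% were called higher and 3.05% lower in MCAO ipsi than in Sham, and 3.82% higher and 0.931% lower in MCAO ipsi than in MCAO contra. Of the fibroblast markers outside the rule, 15 of 30 tested genes were called higher than in Sham and 0 lower, and 3 of 30 were called higher than in MCAO contra and 0 lower. These markers summed to 1061 CPM in all nuclei other than fibroblast nuclei and to 1058 in neuron nuclei. Sums over a library therefore hold much of their RNA from other cells. Other lists moved in the same libraries: against Sham, 11 of 11 microglia and macrophage genes, 7 of 10 endothelial, 5 of 10 astrocyte, 5 of 7 OPC and 34 of 45 cell cycle genes were called higher, and their part in the fibroblast result was not tested. In MCAO contra against Sham 0 genes were called over the whole table by edgeR, with 1033 higher and 755 lower at an unadjusted p of 0.05. More fibroblasts, more RNA of the fibroblast markers in each cell and RNA of these genes from other cells cannot be told apart in these sums.

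For Slc6a20 the infarcted libraries were highest and the Sham libraries lowest, the order of the fibroblast share. It stood at 2.05, 2.56, 4.45, 5.89, 11.8 and 57.3 CPM in the 6 libraries, a log2 fold change of MCAO ipsi over Sham of 3.55 ± 0.67 (SE, adjusted p = 0.0253 by edgeR). Against MCAO contra it was not called. The fibroblast nuclei held 48.5% of the Slc6a20 UMIs of sMCAO ipsi and 2.22% of those of Sham L. Tnc rose as well, by 3.91 ± 0.73 (adjusted p = 0.0249 by edgeR), but only 6.12% of its UMIs in sMCAO ipsi lay in fibroblast nuclei. Postn stood at 9.08, 9.85, 7.68, 7.26, 12.9 and 13.4 over whole libraries and was called higher against MCAO contra, by 0.69 ± 0.13 (adjusted p = 0.0395 by edgeR), but not against Sham (0.20 ± 0.13, adjusted p = 0.288 by edgeR).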

How the data were processed

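Single-nucleus libraries (10x 5′ kit) were deposited as counts of UMIs per gene and nucleus, which the authors made with Cell Ranger 7.0.0 on the mRatBN7.2 build, intronic reads included (tool and build per the submitters' processing notes). Each library deposited 33012945 to 52513380 UMIs. Nuclei with at least 500 UMIs, 250 to 5000 genes and at most 5% mitochondrial UMIs (genes with names that start with Mt-) were kept. A doublet score was computed from simulated doublets; the top 5% of nuclei per library were left out only as an alternative. Members were clustered with Leiden (scanpy 1.11.5, resolution 0.5, 1500 variable genes, 20 components), with libraries not integrated.

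UMIs were summed per library and tested with edgeR 4.0.16 (R 4.3.3, TMM); a gene was called where its Benjamini-Hochberg adjusted p was below 0.05 and its log2 fold change reached 0.6 in either direction. Libraries with under 10 members (both Sham) were left out, and the 12 genes of the rule were not counted as calls in the fibroblast sums. The planned comparisons of fibroblast sums with Sham, and the contrasts of that change with endothelial and mural sums, were therefore not made, and the contrast of MCAO ipsi and contra with mural nuclei and the whole-library fits were added after the data were seen. mMCAO contra and ipsi came from the same rats, as did sMCAO contra and ipsi; over 735 genes the differences between the 2 pools correlated at 0.0535 between hemispheres.

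Genes were named by rule: in the absence of calls, the 5 highest and 5 lowest log2 fold changes with an unadjusted p under 0.01, groups that did not overlap and at least 30 UMIs; for severity the 5 highest and 5 lowest ratios by the interval bound nearest 1; for levels the 25 largest ratios with at least 100 UMIs; and list genes with at least 20 UMIs as examples. The members and the 36 gene lists were chosen with earlier results of these data known. Each pooled library is 1 sample, so p-values measure the spread between libraries, which differ in infarct size. Promoter letters came from RefSeq (GRCr8); no coordinates of the build used for counting were used.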

Additional observations from a re-analysis of the deposited data

How the results depend on the processing

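The count of genes called between MCAO ipsi and MCAO contra in fibroblast nuclei was 0 and stayed at 0 with upper-quartile factors, the stricter rule, at least 2 of the 6 genes, doublet-like nuclei left out, libraries thinned to 1 total, genes higher than in neurons, endothelial-marked nuclei left out and Sham libraries in the fit (405 genes tested). A replicate block on the rat pool also gave 0 and changed no call. It was 1 with DESeq2, 10 with no filter on low counts (13631 genes tested) and 3 without sub-cluster 3; leaving out each library gave 0 to 26, with 26 without mMCAO ipsi, when the lone infarcted library is assumed to vary like the others. The fit restricted to the groups compared was the same as the one reported. The contrast with mural nuclei gave 0, 1 with no filter and 0 to 48 on leaving out a library. The alternatives without sub-cluster 3, without endothelial-marked nuclei, with Sham in the fit, with thinned nuclei and with no minimum share were chosen after seeing the data. Of 126 values of the 10 named genes under alternatives, 110 kept their direction and side of the threshold, 16 were past it and 0 reversed. The ratio of mean fibroblast shares of MCAO ipsi to Sham was 36.5. It was 110 under the stricter rule (5 UMIs and 0.5%), 102 without sub-cluster 3 and 11.2 over nuclei without neurons. Leaving out a library gave 14.7 (without sMCAO ipsi) to 58.3. The stricter rule left 0 and 1 fibroblast nuclei in Sham L and Sham R, and leaving out sub-cluster 3 left 1 in each. Ratios to Sham under these settings thus rest on very few nuclei. MCAO contra to Sham was 7.36, and 14.1 under the stricter rule and 4.87 over nuclei without neurons, 5.45 to 11.3 on leaving out a library (11.3 without Sham L). MCAO ipsi to MCAO contra was 4.96, and 12.5 without sub-cluster 3 and 2.30 over nuclei without neurons, 2.0 to 7.92 on leaving out a library (2.0 without sMCAO ipsi). Sub-clusters numbered 4, and 7 at resolution 1, where 32 of the 50 nuclei of sub-cluster 2 stayed together. With 6 nuclei in Sham, sums over fibroblast nuclei were not compared with it.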
